A study of Mus musculus with 17 samples.

Results

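Kappa light chain variable (Igkv) segments are the gene pieces that encode most of the antigen-binding domain of the kappa light chain of antibodies. They were taken as all rows of the deposited expression table whose symbol starts with Igkv, which gave 160 of 54658 genes. The study asked how leptin and complement factor D from fat bear on osteoarthritis and pain, and sequenced RNA of 16 mouse libraries that carry 8 group codes with 2 libraries per code. Hosts of the type LD, an abbreviation that the design text does not spell out, received mouse embryonic fibroblasts (MEF) under the skin over the breastbone at 3 to 5 weeks of age, and the cells grew into fat-like tissue. In animals with surgery, the medial meniscus of the left knee was destabilized at 16 weeks to induce osteoarthritis. The experiment ended at 28 weeks.

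The KO implants grew from MEF of pups homozygous for a leptin knockout and carry the codes MKF (female, surgery) and MKM (male, surgery). The WT implants grew from MEF of wildtype pups and carry the codes MWF (female, surgery) and MWM (male, surgery). Endogenous visceral fat carries the codes EVM (surgery), EVFY (visceral by its genotype label, its code not spelled out) and EVFN (no surgery). Endogenous subcutaneous fat carries the code ESM (male, surgery). The design text calls the recipients of implants male although MKF and MWF are described as female, and the labels name every tissue as ganglia. Nothing in the labels says whether the 2 libraries of a code came from separate animals or how many animals were pooled, so p-values reflect only how much libraries of a code vary, and that variation may be technical. The sources do not say whether immune cells in an implant came from the host or from the MEF donor.

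Each developing B cell joins 1 Igkv segment to 1 joining (Igkj) segment upstream of the kappa constant gene Igkc, and all its descendants keep that choice. Plasma cells, the antibody-secreting descendants of B cells, hold very large amounts of immunoglobulin RNA. An expanded clone therefore appears in bulk RNA as 1 segment with a large share, and a mixed population as many segments with small shares. In bulk tissue, fewer cells of a type and less RNA per cell cannot be told apart, and neither can RNA of B cells and of plasma cells.

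Several libraries stood apart from their labels. Complement factor D (Cfd), a protease secreted by fat cells, was at 14100 CPM (reads of a gene per 1000000 counted reads) in MKM1 and at 91.4 to 104 CPM in the other KO implants, and at 81.8 CPM in EVFN1 and 5790 to 12400 CPM in the other visceral libraries. The mesothelial gene Upk3b was at 200 CPM in MKM1 and 0.058 CPM in EVFN1, against 0 CPM in MKM2 and 148 CPM in EVFN2. The Y-linked gene Ddx3y was at 0 CPM in MKM1, described as male, and at 80.6 CPM in MKM2, with Xist, the RNA of the inactive X, at 352 and 3.77 CPM. EVFN1 held both Ddx3y (29.3 CPM) and Xist (278 CPM), against 0 and 273 CPM in EVFN2, and MWM1 and MWM2 held both as well (Ddx3y 13.1 and 17.3 CPM, Xist 494 and 466 CPM). Whether MKM1 and EVFN1 carry each other's label was not tested. If they do, values given for MKM, KO implants, EVFN and visceral fat each include a library of another tissue, so the counts of calls are also given without both. Leptin (Lep) itself was at 1640 (MKF1), 1730 (MKF2), 1050 (MKM1) and 1340 CPM (MKM2) in KO implants, against 806 (MWF1), 1020 (MWF2), 1890 (MWM1) and 2670 CPM (MWM2) in WT implants. The form of the knockout is not given in the sources used here, so the RNA level of Lep was no check of genotype. Libraries held 16444965 to 25805502 reads, and a value of 0.039 to 0.061 CPM stood for 1 read. Markers of fat cells (8 genes) summed to 18520 to 55250 CPM, and those of sensory neurons (11 genes) to 7.69 to 62.27 CPM, so genes of fat, and not of the ganglia named in the labels, prevailed.

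The end of a V segment carries the conserved cysteine that precedes the third hypervariable loop of the light chain, and the bases after it are where the joining segment is attached. The last 60 bases of 6 segments that carry the results are shown with the codon of that cysteine in capitals, 5′ to 3′ on the coding strand, from the GENCODE M21 transcripts (mm10). They are the segment with the largest share of any library (Igkv3-2) and a pair of near-identical segments seen in every library (Igkv1-110, Igkv1-117). Igkv5-39 was high in both MWF libraries alike, and Igkv14-126 is known from B-1 cells. Igkv19-93 led 1 visceral library.
Igkv3-2: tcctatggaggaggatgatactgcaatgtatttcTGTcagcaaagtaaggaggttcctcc
Igkv1-110: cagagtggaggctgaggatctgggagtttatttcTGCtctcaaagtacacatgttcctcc
Igkv1-117: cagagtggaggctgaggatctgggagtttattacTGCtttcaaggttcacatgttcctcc
Igkv5-39: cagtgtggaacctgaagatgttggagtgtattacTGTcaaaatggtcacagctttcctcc
Igkv14-126: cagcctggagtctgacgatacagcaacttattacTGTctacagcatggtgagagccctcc
Igkv19-93: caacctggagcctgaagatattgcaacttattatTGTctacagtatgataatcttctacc
In all 6, 23 bases followed the cysteine codon. Igkv3-2 is shown further, as the last 300 bases of its transcript (chr6:70698768-70699067, plus strand). It held 53.6% of Igkv reads in MWF1 and 32.3% in MKF2.
Igkv3-2: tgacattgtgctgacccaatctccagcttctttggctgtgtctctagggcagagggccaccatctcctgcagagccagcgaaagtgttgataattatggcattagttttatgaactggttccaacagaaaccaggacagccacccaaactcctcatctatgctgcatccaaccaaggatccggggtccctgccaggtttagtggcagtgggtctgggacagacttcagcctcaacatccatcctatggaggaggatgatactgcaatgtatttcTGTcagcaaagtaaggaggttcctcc

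Segments resemble one another, and how reads that match several were counted is not given in the sources used here. Igkv1-110 and Igkv1-117 were identical at 97.5% of 401 aligned bases, and 50.9% and 49.9% of their 50-base windows occurred in another Igkv transcript. For Igkv3-2 the closest segment was Igkv3-1 (92.8% identity), with 21.3% of windows shared. Igkv5-39, Igkv14-126 and Igkv19-93 shared 0% of windows, so their values are the least open to such splitting. Somatic mutation, which B cells add after stimulation, can also move reads between segments or lose them.

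All 160 segments were found in GENCODE M21 on chromosome 6, 85 on the minus and 75 on the plus strand, upstream of Igkc (chr6, 70726435 to 70726966, plus strand). Of these, 100 are annotated as V genes and 60 as V pseudogenes. Not a read was counted for 40 segments in any library, all of them pseudogenes, and 41 had reads but stayed under 1 CPM in every library. The other 79 reached 1 CPM in at least 1 library, all of them V genes, and 14 of these did so in exactly 1 library. A total of 25 segments had a read in every library, and Igkv1-110 and Igkv1-117 reached 1 CPM in every library. Pseudogenes held 0% to 0.841% of the Igkv reads of a library. Only 65 segments reached 1 CPM in at least 2 libraries and entered the tests. Of these, 13 did so only because of MWF1 and MWF2, since fewer than 2 of the other 14 libraries held them at that level, so they had to be high there.

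The summed Igkv level was high in both MWF libraries and nowhere else. It was 120.3 CPM in MKF1, 105.4 in MKF2, 185.3 in MKM1 and 87.72 in MKM2. Among WT implants it was 1628 CPM in MWF1, 1022 in MWF2, 38.76 in MWM1 and 62.12 in MWM2. KO implants thus lay between the WT implants described as female and those described as male, with all 4 values inside the range of the WT implants. In visceral fat it was 175.2 (EVM1), 59.87 (EVM2), 122.6 (EVFY1), 148.6 (EVFY2), 30.39 (EVFN1) and 130.9 CPM (EVFN2). In subcutaneous fat it was 28.87 (ESM1) and 87.93 CPM (ESM2). The means were 124.7 ± 42.6 CPM in KO implants and 687.7 ± 776 CPM in WT implants (SD, n = 4 libraries each), so the spread within WT implants exceeded the difference. Without Igkv3-2 the sum was still 755.1 CPM in MWF1 and 904.0 CPM in MWF2.

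The number of segments at 1 CPM or more followed the sum in part. It was 30 and 13 in MKF1 and MKF2 and 40 and 25 in MKM1 and MKM2. In WT implants it was 68 and 60 in MWF1 and MWF2 and 9 and 18 in MWM1 and MWM2. MKF2, with a sum of 105.4 CPM, thus held fewer segments than MWM2, with a sum of 62.12 CPM. The counts in visceral fat were 38 and 14 in EVM1 and EVM2, 30 and 25 in EVFY1 and EVFY2, and 8 and 34 in EVFN1 and EVFN2, and ESM1 and ESM2 held 8 and 20. At an equal number of Igkv reads the order changed. In 500 Igkv reads, the expected number of different segments was 64.7 (MKF1), 46.2 (MKF2), 63.8 (MKM1) and 61.8 (MKM2) in KO implants, against 55.1 (MWF1), 59.0 (MWF2), 52.7 (MWM1) and 55.0 (MWM2) in WT implants. Visceral fat gave 49.9 to 63.4 and subcutaneous fat 36.9 (ESM1) and 49.5 (ESM2). The MWF libraries, with 30646 and 16811 Igkv reads, therefore lay within the range of the other libraries at equal reads, above both MWM libraries and below MKF1, MKM1 and MKM2, and the small counts of EVFN1 (524 reads), ESM1 (509) and MWM1 (825) at 1 CPM go with few Igkv reads. At equal reads ESM1 held the fewest segments of all libraries.

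**Figure D1:**
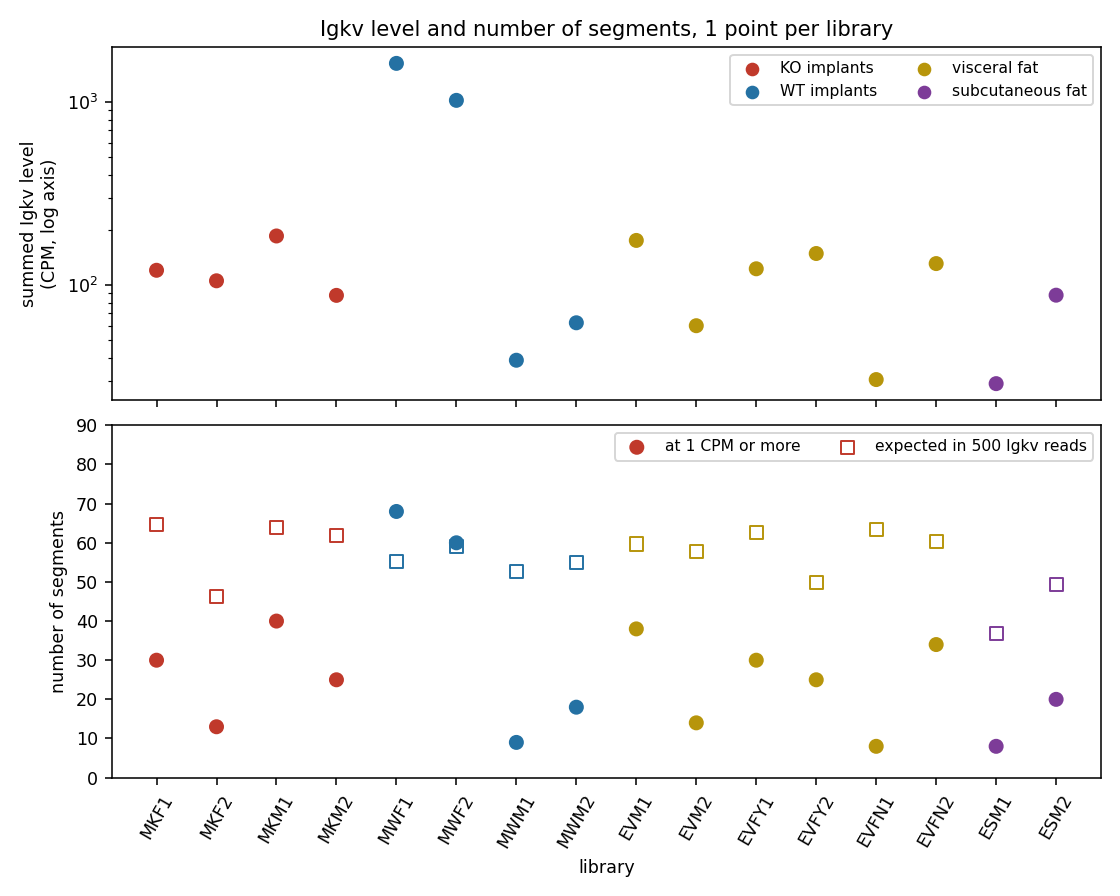
Summed Igkv level (top, CPM on a log axis) and number of Igkv segments (bottom) in each of the 16 libraries, 1 point per library, coloured by tissue. MWF1 (1628 CPM) and MWF2 (1022 CPM) lie far above the others and have the most segments at 1 CPM or more (68 and 60, filled), but not in 500 Igkv reads (55.1 and 59.0, open squares).

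Which segment led differed from library to library. The top segment held 13.3% of Igkv reads in MKF1 (Igkv6-20), 32.3% in MKF2 (Igkv3-2), 19.96% in MKM1 and 10.2% in MKM2 (both Igkv1-110). In WT implants it held 53.6% in MWF1 and 11.6% in MWF2 (both Igkv3-2), 16.1% in MWM1 (Igkv1-110) and 13.0% in MWM2 (Igkv10-96). In visceral fat the leaders were Igkv6-15 (9.49%, EVM1), Igkv14-126 (13.5%, EVM2), Igkv1-110 (17.1% in EVFY1 and 17.4% in EVFN2), Igkv19-93 (24.7%, EVFY2) and Igkv4-74 (12.0%, EVFN1). In subcutaneous fat they were Igkv8-30 (20.6%, ESM1) and Igkv14-126 (19.6%, ESM2). The Wilson 95% interval was 53.1% to 54.2% for the share in MWF1 and 30.4% to 34.1% for that in MKF2, which covers counting error only because the reads carry no molecular identifiers.

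Across the 16 libraries, 9 different segments led, 32 were among the top 5 of at least 1 library, and 19 of these in exactly 1. Igkv1-110 was among the top 5 in 12 libraries, Igkv14-126 in 11, Igkv1-117 in 7 and Igkv3-2 in 6. The top 5 segments together held 36.3% (MWF2) to 67.5% (MWF1) of Igkv reads, with MKF2 at 67.4%, ESM1 at 61.3% and EVFY2 at 57.8%. The effective number of segments (the inverse of the summed squared shares, which is high when no segment dominates) was 20.6 (MKF1), 6.89 (MKF2), 14.3 (MKM1) and 22.2 (MKM2) in KO implants, against 3.38 (MWF1), 23.0 (MWF2), 14.45 (MWM1) and 20.9 (MWM2) in WT implants. In visceral fat it was 9.85 (EVFY2) to 21.3 (EVM1), and in subcutaneous fat 9.79 (ESM1) and 13.4 (ESM2). Without Igkv3-2 it was 25.4 in MWF1 and 11.1 in MKF2, so in MWF1 that segment alone set the low value.

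**Figure D2:**
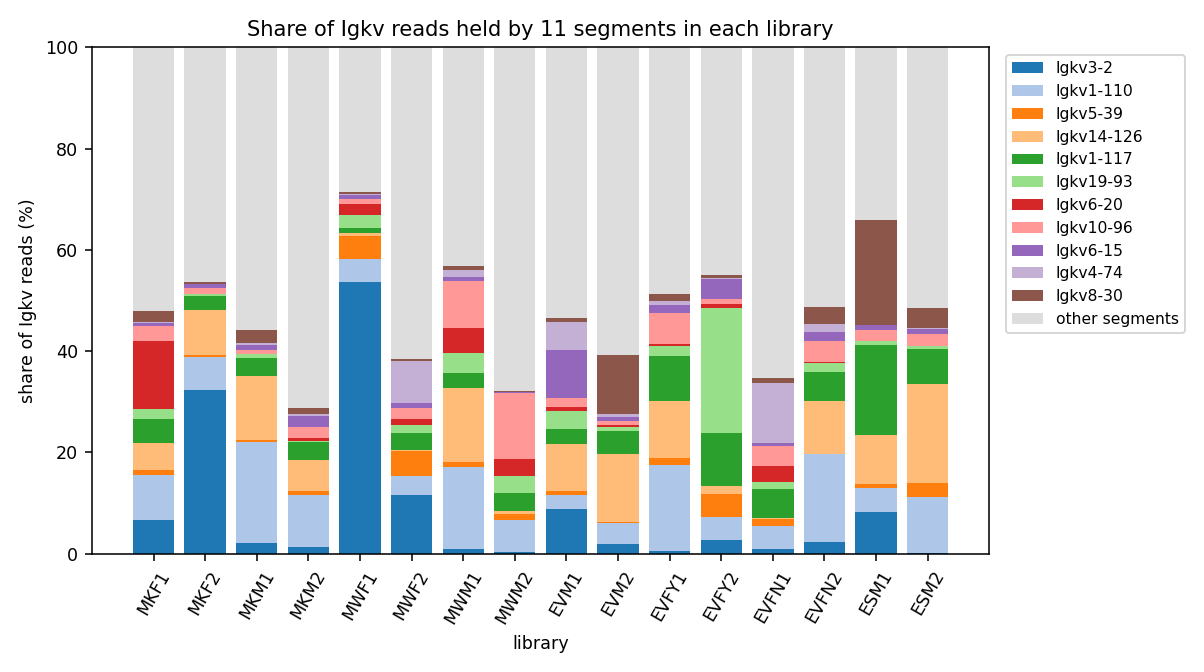
Share of Igkv reads (%) held by 11 segments in each of the 16 libraries: the 6 with the highest mean level and the top segment of each library, with all others in grey. Igkv3-2 holds 53.6% of MWF1 and 32.3% of MKF2, Igkv19-93 24.7% of EVFY2 and Igkv6-20 13.3% of MKF1.

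Igkv3-2 (chr6, 70698449 to 70699067, plus strand, 27.4 kb before Igkc) was the segment with the highest mean level. It was at 7.97 (MKF1), 34.0 (MKF2), 3.75 (MKM1) and 1.12 CPM (MKM2) in KO implants. In WT implants it was at 873 (MWF1), 118 (MWF2), 0.376 (MWM1) and 0.169 CPM (MWM2). Both MWF libraries exceeded every other library, and MKF2 exceeded the other 13. In endogenous fat it was at 15.5 CPM in EVM1 and at 0.171 to 4.0 CPM in the other 7 libraries.

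A heavy chain V segment shared this distribution in part. Ighv1-53, chosen after its values were seen, held 17.0% of heavy chain V (Ighv) reads in MKF2 and 22.6% in MWF1, the highest share of any Ighv segment in both, against 1.33% to 6.49% in the other 14 libraries. MWF2, where Igkv3-2 also led, had Ighv1-53 at 1.38%. Bulk reads do not show which heavy and light chains were made by the same cell.

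Igkv14-126 (chr6, 67896172 to 67896642, plus strand) with the heavy chain segment Ighv11-2 is a known pairing of mouse B-1 cells, the innate-like B cells of the body cavities, that bind phosphatidylcholine. Igkv14-126 held 5.42% (MKF1), 8.92% (MKF2), 12.5% (MKM1) and 6.21% (MKM2) of Igkv reads in KO implants, against 0.512% (MWF1), 0.161% (MWF2), 14.5% (MWM1) and 0.636% (MWM2) in WT implants. In fat it held 9.30% (EVM1), 13.5% (EVM2), 11.2% (EVFY1), 1.48% (EVFY2), 0.191% (EVFN1), 10.5% (EVFN2), 9.63% (ESM1) and 19.6% (ESM2). Thus its share was low in MWF1, MWF2, MWM2, EVFY2 and EVFN1 and at 5% or more in the other 11. Its level did not divide the libraries in this way. It was at 8.34 (MWF1), 1.64 (MWF2), 0.395 (MWM2), 2.19 (EVFY2) and 0.058 CPM (EVFN1). The other 11 held 2.78 (ESM1) to 23.2 CPM (MKM1), with MWM1 at 5.64 CPM. Ighv11-2, chosen after the values of Igkv14-126 were seen, held 0% to 0.588% of Ighv reads in those 5 libraries and 2.96% to 11.2% in the other 11, and led the Ighv segments in MWM1, EVM2 and ESM2. EVFN1 held 1 read of Igkv14-126 and 0 of Ighv11-2. The second known pairing of such cells, Igkv4-91 with Ighv12-3, was highest in EVM2, where they held 5.05% of Igkv and 4.54% of Ighv reads, and Ighv12-3 held under 2% in the other 15.

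**Figure D3:**
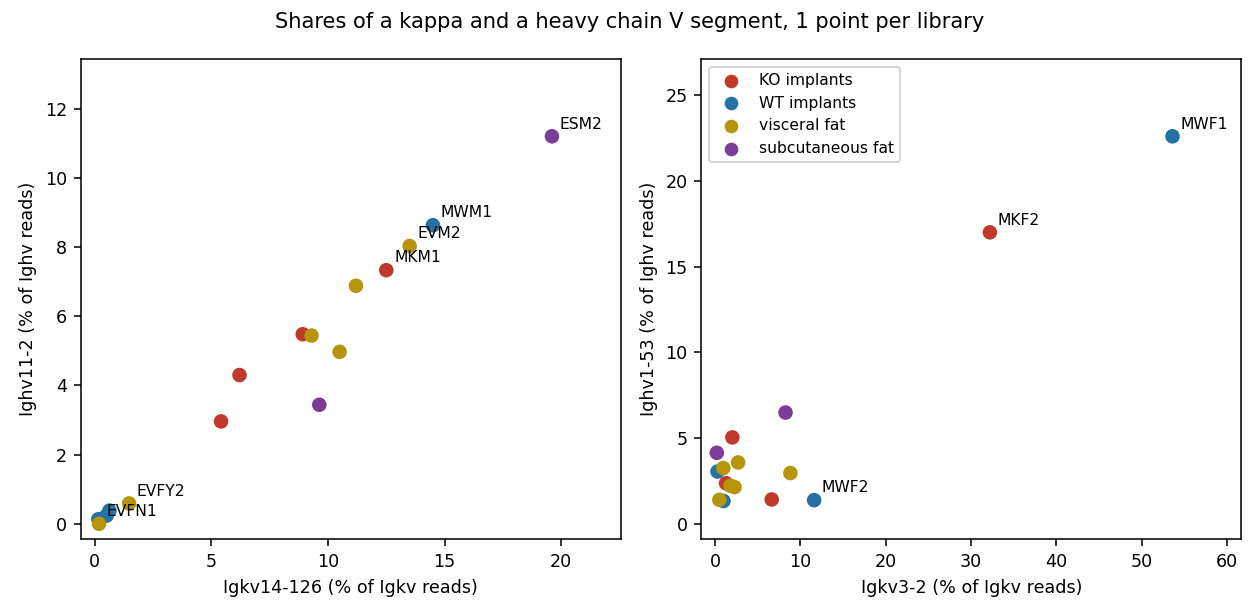
Share of a kappa segment among Igkv reads (x axis, %) and of a heavy chain segment among Ighv reads (y axis, %), 1 point per library, coloured by tissue. Left, Igkv14-126 and Ighv11-2 are both low in 5 libraries and both at 2.96% or more in 11; right, Igkv3-2 and Ighv1-53 are both high in MWF1 and MKF2, and MWF2 has Igkv3-2 at 11.6% with Ighv1-53 at 1.38%.

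MWF implants against MWM implants gave the widest difference among Igkv segments. The limma test on log2(CPM + 0.5), with Benjamini-Hochberg adjustment over 17964 genes and a threshold of 0.05, called 32 of the 65 tested segments higher in MWF and 0 lower, where 8.85% of all tested genes were called higher. All 65 fold changes were positive, with a median of 3.00 on the log2 scale against 0.18 for all genes, and 3.11 with 5 segments that had 0 reads in MWM placed at their lower bound. For 13 of the 65 a high level in MWF was fixed by the filter, and 7 of the 32 calls were among them. The other 52 gave 25 calls and a median of 3.17. Both MWF libraries exceeded both MWM libraries in 47 of these 52, where 43.8% of all genes did so, and exceeded all 14 other libraries in 25, where 14.7% of all genes did so. Because fold changes on this scale are damped at low levels, those of low segments are understated.

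Named segments show what lies behind these counts. Igkv3-2 averaged 496 ± 534 CPM in MWF and 0.273 ± 0.146 CPM in MWM (SD, n = 2 libraries each), a log2 fold change of 8.72 (SE 1.38, limma adjusted p = 0.00452). Igkv5-39 (chr6, 69900424 to 69900977, minus strand) was at 74.4 CPM in MWF1 and 52.1 CPM in MWF2 and at 0.423 and 0.678 CPM in MWM1 and MWM2 (log2 fold change 5.91, SE 0.77, limma adjusted p = 0.00197). No other library had Igkv5-39 above 6.96 CPM (EVFY2), so its rise in MWF was alike in both libraries, unlike that of Igkv3-2. Igkv3-4 was at 8.34 CPM in MWF1 and 60.8 CPM in MWF2 and had 0 reads in both MWM libraries (log2 fold change 5.54, SE 0.87, limma adjusted p = 0.00416). With the reads of both MWF libraries pooled, it was at least 426-fold higher against a floor of 3 reads over the MWM group. That bound leaves out the spread between MWF1 and MWF2. Igkv2-109 was at 5.15 and 46.4 CPM against 0.047 and 0.226 CPM (limma adjusted p = 0.0188), and Igkv3-10 at 21.9 and 43.8 CPM against 0.611 and 0.847 CPM (limma adjusted p = 0.00529). Igkv1-117 and Igkv6-15 were also called, with log2 fold changes of 3.59 (limma adjusted p = 0.00659) and 3.93 (limma adjusted p = 0.0496). Igkv1-110, at 74.0 and 37.9 CPM against 6.25 and 4.01 CPM, missed the threshold with a log2 fold change of 3.28 (limma adjusted p = 0.118). Igkv4-74 owed its mean to MWF2, with 3.19 and 84.6 CPM in MWF1 and MWF2 against 0.564 and 0 CPM in MWM (limma adjusted p = 0.0618).

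For 6 of the 65 tested segments the MWF and MWM values overlapped, and Igkv14-126 was among them, with 8.34 and 1.64 CPM in MWF1 and MWF2 against 5.64 and 0.395 CPM in MWM1 and MWM2 (log2 fold change 0.89, SE 1.58, limma adjusted p = 0.809). The smallest fold change was that of Igkv12-89, named after its values were seen, with 1.12 and 4.26 CPM in MWF against 1.64 and 2.99 CPM in MWM (log2 fold change 0.02). Igkv reads of MWF1 and MWF2 also differed from each other. Each was the highest library for 31 of the 79 segments that reached 1 CPM, and the shares of their segments overlapped by 43.6%. The number called higher in MWF was 5 without MWM1, 5 without MWM2, 11 without MWF2 and 19 without MWF1. It was 41 without EVFN1 and MKM1, and 6 with edgeR on the whole reads recovered from the table, all of them among the 32.

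The kappa constant gene and the markers of B and T cells moved with the segments, those of plasma cells in part and few of those of germinal centres. Igkc was at 3381 CPM in MWF1 and 2462 CPM in MWF2, against 98.43 and 156.6 CPM in MWM1 and MWM2 (log2 fold change 4.53, SE 0.77, limma adjusted p = 0.0062). Of the list of B cell genes (Ms4a1, Cd79a and others), 14 of 15 rose, and their summed level was 1825 and 1117 CPM in MWF against 194.4 and 258.2 CPM in MWM, with 237.5 to 488.6 CPM elsewhere. Of the plasma cell list 7 of 13 rose, of the immunoglobulin constant genes 10 of 12 and of the T cell list 10 of 10. Of the tested genes of lymphoid stroma and chemokines 4 of 6 rose. The plasma cell gene Sdc1 was not called, at 50.95 and 52.48 CPM in MWF against 85.23 and 62.97 CPM in MWM. Of the germinal centre list 2 of 7 rose, and its summed level was 120.4 and 140.2 CPM in MWF against 111.3 and 96.4 CPM in MWM. The summed T cell level was 535.5 and 698.6 CPM in MWF against 12.59 and 28.29 CPM in MWM, and 5.73 to 77.26 CPM elsewhere. None of 8 fat cell genes and none of 10 tested sensory neuron genes were called. The genes of V(D)J recombination, which developing lymphocytes use, summed to 270.4 CPM in MWF2 and 19.45 CPM in MKM2, with Rag1 at 159 and 12.8 CPM. They summed to 6.75 CPM in MWF1, where Rag1 was at 0, and to 0.057 to 1.59 CPM in the other 13 libraries. The part of these cell types in the Igkv values was not tested.

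**Figure D4:**
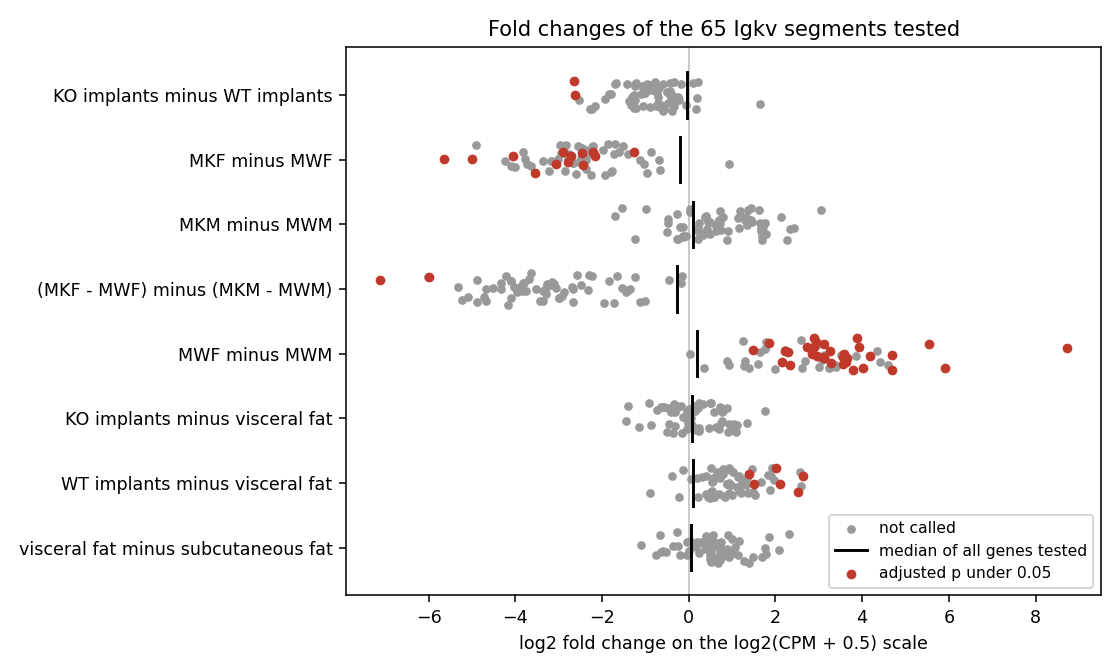
Log2 fold changes on the log2(CPM + 0.5) scale (x axis) of the 65 tested Igkv segments in 8 comparisons, 1 point per segment, red where the adjusted p was under 0.05, with the median of all tested genes as a black bar. In MWF minus MWM all 65 lie above 0 and 32 were called. In MKF minus MWF 64 lie below 0 and 13 were called. For 13 of the 65 segments a high level in MWF was fixed by the filter. In KO implants minus visceral fat the median is 0.05 and none was called.

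KO implants against WT implants, the contrast of donor genotype, differed between the groups described as female and male. In MKF against MWF, 13 segments fell and 0 rose, where 4.77% of all genes were called lower, and the median of the 65 was -2.49 against -0.20 for all genes. That median includes the 13 segments that passed the filter only through MWF1 and MWF2, whose high level in MWF was fixed. Of the 13 calls, 6 were among these segments. Igkv5-39 was at 1.21 and 0.429 CPM in MKF1 and MKF2 against 74.4 and 52.1 CPM in MWF1 and MWF2 (log2 fold change -5.64, SE 0.77, limma adjusted p = 0.00675). Igkv3-10 fell by 5.00 on the log2 scale (limma adjusted p = 0.00822), Igkv2-109 by 4.06 (limma adjusted p = 0.0465) and Igkv3-4 by 3.54 (limma adjusted p = 0.0436). Igkv4-80 fell by 3.05 (limma adjusted p = 0.0157), but it passed the filter only through MWF1 and MWF2. Igkc fell to 334.1 and 224.2 CPM in MKF1 and MKF2, against 3381 and 2462 CPM in MWF (limma adjusted p = 0.0336). Markers of lymphoid cells moved with the segments in part here too. Called lower in MKF were 10 of 10 T cell genes, 8 of 15 B cell genes and 5 of 12 immunoglobulin constant genes. So were 4 of 13 plasma cell genes, 3 of 6 tested genes of lymphoid stroma and chemokines and 2 of 7 germinal centre genes. The T cell genes summed to 77.26 and 17.17 CPM in MKF against 535.5 and 698.6 CPM in MWF, and the B cell genes to 488.6 and 257.5 CPM against 1825 and 1117 CPM. Their part in the Igkv values was not tested. This comparison and that of MWF with MWM share the MWF libraries. The count was 22 without EVFN1 and MKM1, 1 with edgeR (Igkv6-13), 0 without MKF2, 5 without MKF1, MWM1 or MWM2, and 6 without MWF2.

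In MKM against MWM, limma called 0 segments, where 0.00557% of all genes were called. At an unadjusted p under 0.05 there were 5, edgeR called 0, and DESeq2 called Igkv2-109 and Igkv6-23 higher. The median was 0.69 against 0.11 for all genes, and 0.73 with 5 segments of 0 reads on a side at their bound. Igkv6-23 had the smallest p, at 6.94 and 1.17 CPM in MKM1 and MKM2 against 0.094 and 0.226 CPM in MWM1 and MWM2 (log2 fold change 2.43, SE 0.80, limma adjusted p = 0.309). Igkv2-109 was at 9.70 and 2.19 CPM in MKM1 and MKM2 against 0.047 and 0.226 CPM in MWM (log2 fold change 3.06, SE 1.02, limma adjusted p = 0.31). The limma count was also 0 without EVFN1 and MKM1, where 238 genes of 17964 were called higher and 12 lower.

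The difference between the 2 genotype effects, that of the groups described as female minus that of the groups described as male, was called for 2 segments, both lower, where 1.2% of all genes were called lower. It was -7.11 for Igkv2-109 (SE 1.44, limma adjusted p = 0.049) and -5.98 for Igkv5-39 (SE 1.09, limma adjusted p = 0.0378). All 65 differences were negative, with a median of -3.29 against -0.26 for all genes. For 13 of the 65 the filter had fixed a high level in MWF, which enters with a negative sign. The direction of these 13 was thus largely fixed, and neither called segment was among them. No median was taken over the other 52 here. Neither call remained without MKF2, MKM1, MKM2, MWF1, MWF2, MWM1 or MWM2, each left out alone, nor with edgeR, with the pseudocount of 0.1 or with median-of-ratios scaling, where the count was 0. Igkv2-109 was also lost without any 1 of the other 9 libraries. Without both EVFN1 and MKM1 neither call remained, and Igkv6-13 and Igkv6-25 were called in their place.

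Over the groups described as female and male together, 2 segments fell in KO implants, where 1.04% of all genes were called lower. They were Igkv5-39 (log2 fold change -2.65, SE 0.54, limma adjusted p = 0.043) and Igkv3-10 (-2.63, SE 0.54, limma adjusted p = 0.043), named after their values were seen because the values of the sides overlap. Igkv5-39 was at 1.21, 0.429, 0.937 and 0.713 CPM in KO implants, against 74.4, 52.1, 0.423 and 0.678 CPM in WT implants. The calls thus rest on MWF1 and MWF2, and MWM1 and MWM2 lay within or below the range of the KO implants. The median of the 65 was -0.86 against -0.05 for all genes. It includes the 13 segments whose high level in MWF was fixed by the filter, and neither call was among these. With edgeR, with the pseudocount of 0.1, and without MKF2, MKM1, MKM2, MWF1, MWM1 or MWM2 the count was 0, and without EVFN1 and MKM1 it was 4.

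No Igkv segment was called between KO implants and visceral fat as labelled. Limma called 0 segments and 0% of all genes, with 3 segments at an unadjusted p under 0.05 and 0 calls by edgeR and by DESeq2. The median was 0.05 against 0.07 for all genes, with 33 segments positive and 32 negative. Igkv15-103 (chr6, 68437440 to 68437925, plus strand) had the smallest p, at 8.65 (MKF1), 14.9 (MKF2), 1.10 (MKM1) and 7.23 CPM (MKM2) in KO implants, against 0.233 to 2.32 CPM in visceral fat (log2 fold change 1.75, SE 0.54, limma adjusted p = 0.431). It was above all visceral libraries in every KO implant except MKM1, and was the 1 segment called without EVFN1 and MKM1. That setting called 2933 of 17964 genes higher and 1480 lower, so the count of 0 over all genes depended on these 2 libraries, and the Igkv median was then -0.275. Igkv4-57 averaged 1.25 ± 0.524 CPM in KO implants (n = 4) and 0.302 ± 0.193 CPM in visceral fat (SD, n = 6), a log2 fold change of 1.12 (SE 0.45, limma adjusted p = 0.431).

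WT implants had 6 segments higher than visceral fat and 0 lower, where 8.03% of all genes were called higher, so the share of segments called was near that of all genes. They were Igkv12-41, Igkv3-10, Igkv3-12, Igkv4-80, Igkv5-39 and Igkv8-27, named after their values were seen, with log2 fold changes of 1.40 to 2.63. Of these calls, 1 (Igkv4-80) passed the filter only through MWF1 and MWF2, so its high level there was fixed. For all 6 the values of the sides overlap. Igkv3-10 was at 21.9, 43.8, 0.611 and 0.847 CPM in MWF1, MWF2, MWM1 and MWM2, against 0.116 to 1.96 CPM in visceral fat (limma adjusted p = 0.0145). The median of the 65 was 0.94 against 0.09 for all genes, and it includes the 13 segments whose high level in MWF was fixed by the filter. Without EVFN1 and MKM1 the count was 7, without MWM2 it was 0, without MWM1 it was 1, without EVM2 it was 2 and with edgeR it was 1 (Igkv8-27). Sensory neuron genes (8 of 10), T cell genes (10 of 10) and B cell genes (8 of 15) were also called higher in this comparison, and their part in it was not tested.

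Visceral against subcutaneous fat gave 0 segments called by limma, where 0.323% of all genes were called. At an unadjusted p under 0.05 there were 4, edgeR called 0 and DESeq2 called 4 higher (Igkv3-5, Igkv4-55, Igkv6-13 and Igkv6-23). The median was 0.65 against 0.06 for all genes, and 0.71 with 12 segments of 0 reads on a side at their bound. Igkv6-13 was at 0.416 to 3.42 CPM in visceral fat, against 0 and 0.114 CPM in ESM1 and ESM2 (log2 fold change 1.68, SE 0.47, limma adjusted p = 0.303). Over the libraries of a side, it had 165 reads in visceral fat and 2 in subcutaneous fat, a ratio of 25.04 with an exact 95% counting interval of 6.82 to 208. Igkv13-84 had 0 reads in both ESM libraries and was at 0.058 to 1.21 CPM in visceral fat (limma adjusted p = 0.42). With the reads of the visceral libraries pooled, it was at least 4.86-fold higher there, a bound that leaves out their spread.

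The library labelled MKM1 had the highest summed Igkv level of the 14 libraries outside MWF, 185.3 CPM, and the most segments at 1 CPM or more among them (40). Its leaders were Igkv1-110 (19.96%) and Igkv14-126 (12.5%), and Igkv1-110 was at 37.0 CPM there against 6.91 to 10.7 CPM in the other KO implants. Its Ighv11-2 share was 7.33%. As the sum over segments of the smaller share, its composition overlapped most with EVFY1 (65.8%) and EVFN2 (63.5%), both visceral fat. Next came the implant MWM1 (57.9%) and the visceral EVM2 (56.3%). MKM2, of the same code, followed at 54.3%, rank 5 among 15. The implant MWM1 was likewise nearest to EVFY1 (65.7%) and EVFN2 (58.5%). IgA, the isotype of mucosal plasma cells, had its constant gene Igha at 278 CPM in MKM1, against 77.1 to 128 CPM in the other KO implants and 8.84 to 167 CPM in visceral fat.

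The library labelled EVFN1 had the lowest summed Igkv level of the visceral libraries, 30.39 CPM from 524 reads, and 8 segments at 1 CPM or more. Its leaders were Igkv4-74 (12.0%, Wilson 95% interval 9.51% to 15.1%) and Igkv6-13 (11.3%). At 500 reads it held 63.4 segments, the most of the visceral libraries, and its effective number was 21.1, against 13.95 in EVFN2. Its composition overlapped most with MKF1 (53.2%) and MWF2 (50.1%), both implants. The visceral EVFY1 came next (46.3%), and EVFN2 followed at 44.6%, rank 7 among 15. Without EVFN1, the visceral libraries spanned 59.87 to 175.2 CPM in sum.

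Libraries of the same code were about as alike in segment shares as libraries of different codes. The overlap was 42.7% to 54.3% in the 8 pairs of the same code, with a median of 45.2%, and 26.0% to 67.2% in the 112 pairs of different codes, with a median of 43.1%. The highest were EVFY1 with EVFN2 (67.2%), with MKM1 (65.8%) and with MWM1 (65.7%), libraries that Igkv1-110 led and where Igkv14-126 ranked 2 or 3. MWF1 was nearest to MKF2 (54.1%), the other library led by more than 30% of Igkv3-2. Only MWM2 had its own code's other library as its nearest.

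**Figure D5:**
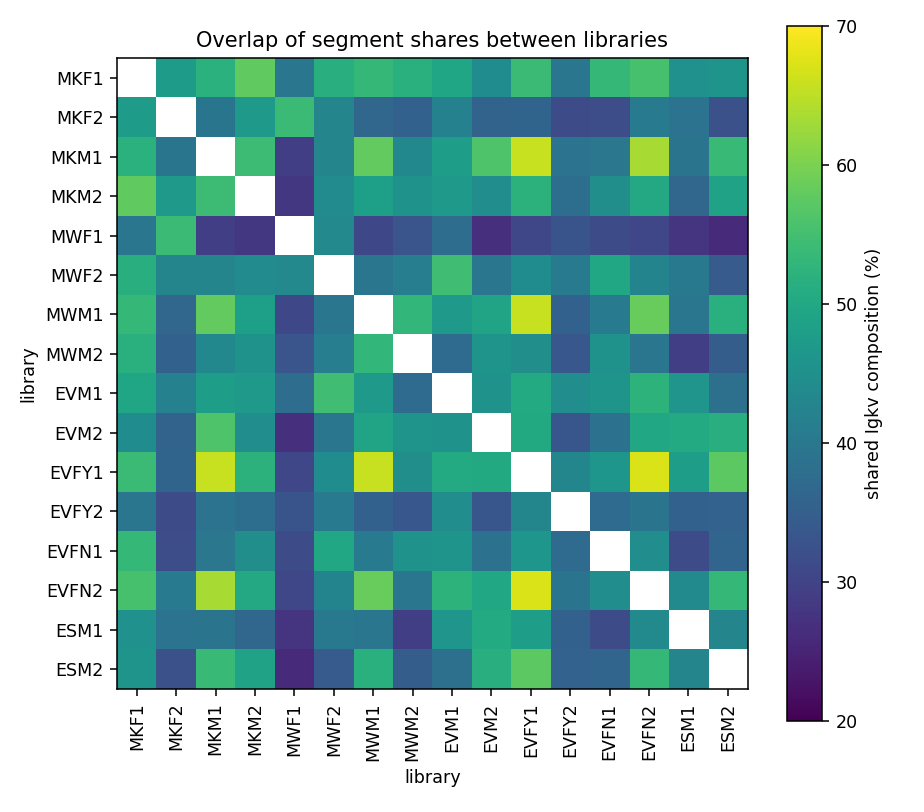
Overlap of Igkv composition (%, the sum over segments of the smaller of both shares) between the 16 libraries, colour scale from 20% to 70%, own cells left blank. The brightest cells join EVFY1 with EVFN2, MKM1 and MWM1 (65.7% to 67.2%), and the row of MWF1 is dark except for MKF2 (54.1%).

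By segment family, the Igkv3 family held 1.62% (ESM2) to 57.8% (MWF1) of Igkv reads, Igkv1 6.67% to 28.0% and Igkv4 6.35% to 26.2%. Igkv13, with 18 segments the second largest family after Igkv4 with 33, held at most 1.56% (EVM1). Only 2 of its 18 segments are annotated as V genes, and both reached 1 CPM. Segments on the minus strand, which need an inversion of the DNA to join, held 26.8% (MWF1) to 73.0% (EVFY2) of reads, and their leaders there were Igkv3-2 on the plus and Igkv19-93 on the minus strand.

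Across the libraries, the summed Igkv level went with Igkc and with the plasma cell gene Jchain, which joins antibody units into polymers. On the log2 scale Pearson's r was 0.995 for Igkc and 0.988 for Jchain over 16 libraries (Spearman's rho 0.977 and 0.971), and 0.983 and 0.959 over the 14 without MWF. Igkv reads were 0.360 (MKF1) to 0.546 (ESM1) of Igkc reads. Among 11501 genes outside the immunoglobulin loci with a mean of 5 CPM or more, the 8 with the highest r were Jchain, Mzb1, Slc44a2, Pou2af1, Gimap6, Rnase6, Gimap3 and Ripor2, with r of 0.917 to 0.988. Without MWF their r was 0.670 to 0.959. These correlations are a description over libraries that share groups and depth. Mzb1, a chaperone of antibody secretion, was at 61.2 CPM in MWF1 and 34.8 CPM in MWF2 and at 0.170 to 5.47 CPM in the other 14.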

How the data were processed

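CPM values, reads of a gene per 1000000 reads counted, were deposited by the authors for 54658 genes. Per the labels' protocols, libraries were depleted of ribosomal RNA with RNase H and primed with random hexamers. The submitters' processing notes name STAR 2.5.4, Subread 1.6.3 with featureCounts, cutadapt 2.7, FastQC 0.11.4 and the build mm10. Strand setting, treatment of multiply mapped reads and filters were not given in the sources used here. All nonzero values were whole multiples of 1 read (100%, tolerance 0.001), which returned the counts. Totals were 16444965 to 25805502 reads.

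Here log2(CPM + 0.5) of the 17964 genes that reached 1 CPM in 2 or more libraries entered limma 3.58.1 under R 4.3.3 (trend, robust), as 1 model of 8 group means (8 residual degrees of freedom), sides as equally weighted groups, Benjamini-Hochberg over all genes. Counts entered edgeR (4.0.16, quasi-likelihood, TMM) and DESeq2 (1.42.0) as alternatives. Libraries of a group differed by more than sampling noise (chi-square 24.7 to 240 per degree of freedom).

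Members and gene lists were chosen with earlier results of these data known. Segments named are the 6 with the highest mean, the top one of each library and, per comparison, up to 5 higher and 5 lower calls with the largest fold change without overlap between sides, or the 2 with the smallest p. A sample labelled ESF is not analysed here. One gene of the B cell list is not reported here, and the list's counts and sums leave it out. Symbols were matched to GENCODE M21, whose transcripts gave the sequences.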

Additional observations from a re-analysis of the deposited data

Results flagged for a closer look

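By Dixon's test at the 95% level, 11 of 51 groups of values held a library far from the others of its tissue. The groups were 6 summary measures and 11 segments in the tissues with 4 to 10 libraries. Chance marks about 1 group in 20 only where the measures are chosen beforehand. The 11 segments were chosen from these same values, as the 6 highest in mean or the top one of a library. Marks were thus built in for them, and the count of 11 shows no excess over chance. In WT implants, the top share was 53.6% in MWF1 and 11.6% to 16.1% in the other 3, Igkv3-2 was at 873 CPM in MWF1 and 0.169 to 118 in the others, and Igkv4-74 was at 84.6 CPM in MWF2 and 0 to 3.19 in the others. In KO implants, 500 Igkv reads held 46.2 segments in MKF2 and 61.8 to 64.7 in the others, Igkv1-110 was at 37.0 CPM in MKM1 and 6.91 to 10.7 in the others, and Igkv6-20 was at 16.0 CPM in MKF1 and 0.0429 to 0.56 in the others. In visceral fat, EVM1 had Igkv3-2 at 15.5 CPM (0.29 to 4.0 in the other 5), Igkv6-15 at 16.6 CPM (0.174 to 5.92) and Igkv4-74 at 9.71 CPM (0.164 to 3.65). EVFY2 had Igkv5-39 at 6.96 CPM (0 to 1.76 in the other 5) and Igkv19-93 at 36.7 CPM (0.406 to 6.47).

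Between KO and WT implants, the effect differed between the groups described as female and male, tested as a difference of differences in limma, for Igkv2-109 (-7.11 on the log2 scale, adjusted p = 0.049) and Igkv5-39 (-5.98, adjusted p = 0.0378). For Igkv5-39, the effect was -5.64 in the groups described as female. In those described as male, KO and WT implants were at 0.825 ± 0.158 and 0.55 ± 0.18 CPM (SD, n = 2 each). Neither call remained with edgeR, with pseudocount 0.1, with median-of-ratios scaling or without EVFN1 and MKM1.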

How the results depend on the processing

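No count of calls and no named segment followed through the alternatives changed direction. The median of the 65 segments in KO implants minus visceral fat (0.05) did, to -0.275 without both EVFN1 and MKM1. With 1 library left out, it was -0.20 without MKF1, -0.11 without MKM1, -0.034 without EVFN1 and -0.013 without EVM2. The setting without EVFN1 and MKM1 was chosen with earlier results of these data known. KO minus WT implants (2 calls) gave 0 with pseudocount 0.1, 0 with edgeR, 7 with DESeq2, 0 with the replicate block and 4 without EVFN1 and MKM1. MKF minus MWF (13) gave 4 with pseudocount 0.1, 24 with pseudocount 2, 20 with no filter, 1 with edgeR, 25 with DESeq2 and 22 without both libraries. MKM minus MWM (0) gave 2 with DESeq2. The difference between the 2 genotype effects (2) gave 0 with pseudocount 0.1, 6 with pseudocount 2 and 4 with no filter. It also gave 0 with median-of-ratios scaling, 0 with edgeR, 19 with DESeq2 and 0 with the block. MWF minus MWM (32) gave 6 with edgeR. WT implants minus visceral fat (6) gave 3 with pseudocount 0.1, 11 with pseudocount 2, 1 with edgeR and 10 with DESeq2. KO implants minus visceral fat (0) gave 1 without both libraries, and visceral minus subcutaneous fat (0) gave 4 with DESeq2. The cause of these changes was not tested. Median-of-ratios scaling moved the median of all genes by -0.211 in MWF minus MWM and 0.231 in the difference between the 2 genotype effects. Leaving out 1 library at a time gave 0 to 3, 0 to 17, 0 to 0, 0 to 4, 5 to 35, 0 to 9, 0 to 0 and 0 to 1 calls, in the order of the comparisons above. Of the results for named segments under alternatives, 355 kept their side of the threshold, 72 lost the call and 5 gained one.

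Replicate numbers did not pair libraries: deviations of same-numbered libraries correlated at -0.87 to 0.343 over 28 pairs of groups (median -0.0488, 12 over 0.1). With the replicate number as a block, MKF minus MWF gave 9 calls and MWF minus MWM 24. The mean number of segments at 1 CPM or more moved from 27.0 in KO implants to 40.0 at 0.5 CPM, 13.0 at 2 CPM and 59.1 in 500 Igkv reads; in visceral fat to 37.7, 12.7 and 59.0; and in subcutaneous fat to 43.2 in 500 reads. The mean of KO implants thus lay below that of WT implants at 1 CPM (27.0 and 38.75) and above it in 500 reads (59.1 and 55.5). Single libraries did not divide in this way. At 1 CPM the KO implants (13 to 40) lay inside the range of the WT implants (9 to 68). In 500 reads MKF2 (46.2) lay below all WT implants (52.7 to 59.0). Depth limits low segments: 3 reads, the most that a count of 0 allows, are 0.116 to 0.182 CPM.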
